A study of Mus musculus with 18 samples.

Results

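Control hippocampi were compared with control neurospheres at postnatal day 0, using 5 of the 18 RNA-seq libraries of the series. The 5 libraries were taken by their deposited labels, which name 3 as hippocampus and 2 as neurosphere with the treatment Ctrl, and none of the other 13 enters the comparison. All 5 carried floxed Kdm2b, as Kdm2b fl/+ or Kdm2b fl/fl, and the labels do not tell which library had which. Hippocampi were collected as whole tissue. For neurospheres, the authors enriched neural progenitor cells from hippocampi of the same age and grew them over several generations on ultra-low-attachment plates, in DMEM/F12 with N2, B27, Na-pyruvate, N-acetyl-L-cysteine, FGF2 and EGF. The labels do not say whether libraries of a group came from separate animals or cultures, so p-values measure the spread between these libraries, which may be technical.

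The newborn hippocampus is a mixed tissue. Radial glial cells line the ventricle and divide there, intermediate progenitors leave them and give rise to glutamatergic neurons, and the neurons settle in the CA fields and the dentate gyrus. GABAergic interneurons and Cajal-Retzius cells come from other parts of the forebrain, and blood vessels, microglia and meninges have their own origins. Neurospheres are floating clusters of dividing cells that EGF and FGF2 keep in a progenitor state, and cells of such cultures can form neurons, astrocytes and oligodendrocytes once the factors are withdrawn.

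Expression was given as FPKM, the fragments of a transcript scaled by its length and by the mapped fragments of the library. FPKM values hold no counts. The paper's methods give a nominal depth for its RNA-seq libraries, and the depth that each library reached is unknown here. The 5 libraries were rescaled together by the median ratio of genes at 1 FPKM or more in all of them, with factors from 0.929 to 0.936 for hippocampi and of 1.11 for both neurosphere libraries, and levels below are rescaled FPKM. The first neurosphere library stood apart before rescaling: entries that name no gene held 29.3% of its FPKM total, against 1.12% in the second, and the microRNA gene Mir6236 held 15.9%, against 0. Both were left out of every comparison. Over the genes tested, log2(FPKM + 1) values correlated at Pearson's r from 0.988 to 0.992 among hippocampi, at 0.995 between the neurosphere libraries and from 0.768 to 0.770 between hippocampi and neurospheres. These are correlations across genes, which are not independent replicates. Xist, the RNA that coats the silent X chromosome of female cells, was at 0.0627, 0.0163 and 0.0782 FPKM in the hippocampi and at 158 and 156 FPKM in the neurospheres, while the Y-linked Ddx3y was at 17.4, 16.8 and 16.4 FPKM in the hippocampi and listed at 0 in both neurosphere libraries. Tissue or culture, the table a library came from and the sex of its cells therefore cannot be told apart in this comparison. In the Kdm2b cKO libraries of the same tables both sexes occur in each kind of sample, and the differences found with those libraries in place of the controls are given where they end or turn a call that is named.

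A test was made of 12575 genes, those with an average over the 5 libraries of 0.5 FPKM or above. Of these, 1297 were higher in neurospheres, which is 10.3% of the genes tested, and 2712 were higher in hippocampi, which is 21.6%. A gene was called by limma at an adjusted p below 0.05 and a difference above 1 on the log2(FPKM + 1) scale, where FPKM is rescaled and weakly expressed genes show less than their true ratio. Together 31.9% of genes were called, and for 85.1% all libraries of one kind lay above all of the other. With so many genes apart, a gene list was read against those shares and not by the presence of calls. The median difference of all genes, neurospheres minus hippocampi, was -0.12 on the log2 scale. Without rescaling the median moved up by 0.22, and 44.1% of calls were then higher in neurospheres in place of 32.4%. Ranking genes by percentile within each library gave 45.3%. Without the first neurosphere library, 1307 genes were higher in neurospheres and 2691 in hippocampi, and with the cKO libraries of both tables in place of the controls the counts were 1303 and 2786.

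**Figure D1:**
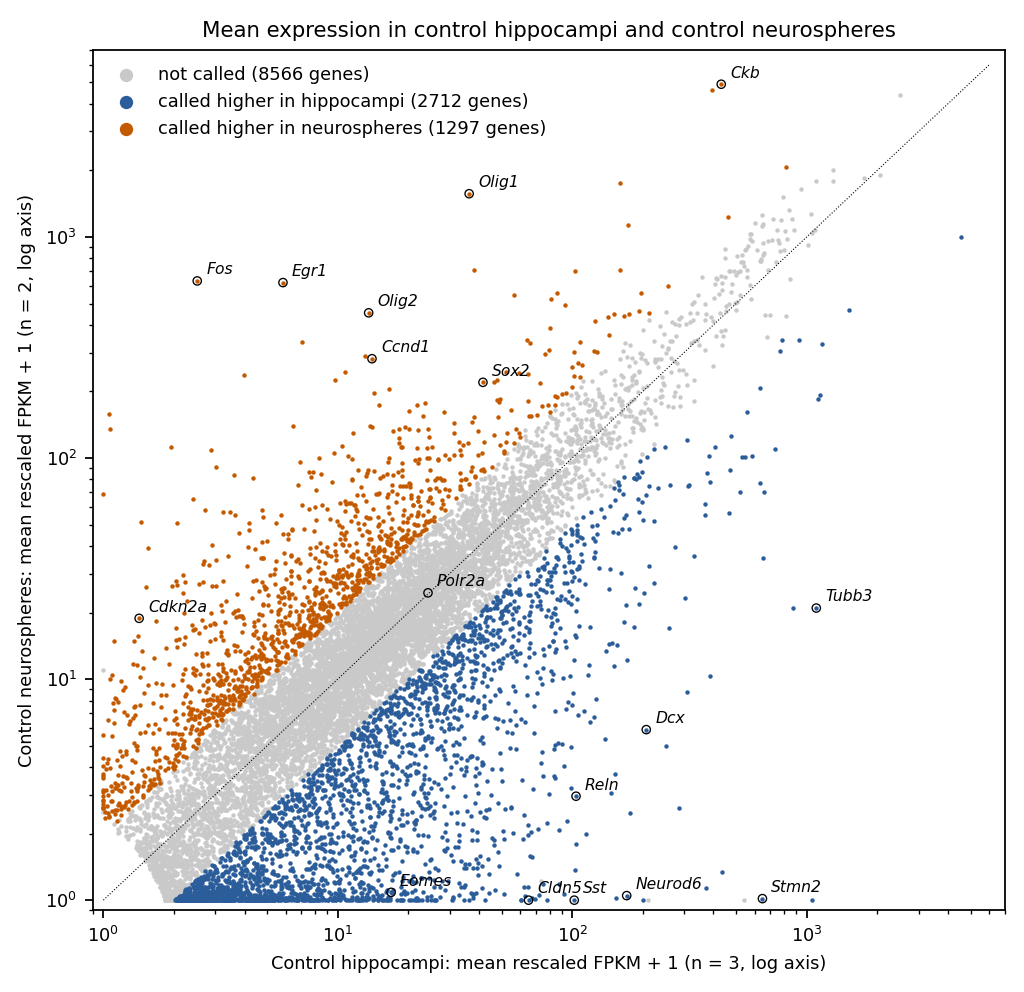
Mean rescaled FPKM + 1 of each gene tested in 3 control hippocampi (horizontal log axis) and 2 control neurosphere libraries (vertical log axis), coloured by call. The 1297 genes higher in neurospheres include Fos, Olig1 and Ccnd1 far above the diagonal, and the 2712 genes higher in hippocampi include Stmn2, Neurod6 and Sst along the bottom edge.

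Apart from Eef1a1, the 5 genes of highest mean were not the same ones in tissue and culture. In hippocampi the highest mean belonged to Tuba1a, a tubulin of growing neurons, at 4683, 4198 and 4733 FPKM, against 1006 and 997 FPKM in the neurospheres. It was 4.53-fold higher in hippocampi, and it was followed there by Eef1a1, Tmsb4x, Rpl38 and Tmsb10. Tmsb10 was called higher in hippocampi, at -1.74 on the log2 scale, and lost the call with the cKO libraries, at -0.71. In neurospheres the highest mean belonged to Ckb, the brain creatine kinase, at 5023 and 4790 FPKM against 444, 424 and 426 FPKM in the hippocampi. Apoe, a lipid carrier of glia that shares its entry with Tomm40, came next at 5692 and 3563 FPKM in neurospheres and 379, 392 and 409 FPKM in hippocampi. Both lay above all hippocampal values in each neurosphere library, although the neurosphere libraries differed from each other in Apoe. Eef1a1, Fabp7 and Rps26 completed the neurosphere top 5. Among these abundant genes, Tmsb4x, Rpl38, Eef1a1 and Rps26 passed no call, with differences of -0.11, 0.05, 0.82 and 0.63 on the log2 scale.

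Genes present in one kind of sample and near 0 in the other were mostly hippocampal. At 5 FPKM or more in every library of one kind and under 0.5 FPKM in every library of the other, there were 318 genes of hippocampi and 22 of neurospheres among the 22232 genes joined. Xist and Y-linked genes were left out of these counts and of the genes named from them. The highest on the hippocampal side were Esp38, Stmn2, Islr2, Crym and Cck. Stmn2, a regulator of microtubules in growing axons, was at 641, 660.4 and 638 FPKM in hippocampi and at 0 and 0.0324 FPKM in neurospheres. Cck, a neuropeptide, was at 174, 259 and 165 FPKM in hippocampi and listed at 0 in both neurosphere libraries, and Crym, a thyroid hormone binding protein, went from 369 to 0.132 FPKM on average. Esp38 and Islr2 had 2 entries in the hippocampal table and 1 in the neurosphere table, and its part in their differences, -10.02 and -8.35 on the log2 scale, was not tested. On the neurosphere side the highest were Fosb, Slc22a27, Tmem255b, Gdf15 and 9330188P03Rik, and Slc22a27, with differing numbers of entries in the 2 tables, was at 126 and 10.01 FPKM in the neurosphere libraries. Gdf15, a secreted stress factor, was at 0, 0 and 0.319 FPKM in hippocampi and 11.1 and 16.6 FPKM in neurospheres.

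The largest differences were ranked outside the gene lists described below, and without Xist, Y-linked genes and entries that name several genes. Toward hippocampi the 10 largest were Esp38, Islr2, Crym, Cck, Ly6h, Igfbpl1, Vstm2l, Syt4, Shtn1 and Bhlhe22. They ranged from -10.02 to -5.84 on the log2 scale. Syt4 is a synaptotagmin of neuronal vesicles, Shtn1 encodes shootin, which acts in axon formation, and Bhlhe22 is a transcription factor of dorsal telencephalic neurons. Toward neurospheres the 10 largest were Cyr61, Slc22a27, Dmrtb1, Egr4, Nfkbiz, 2810468N07Rik, Plekhb1, Lhfpl3, Hist1h1c and Chst7, from 5.27 down to 4.45. Slc22a27 held its place through the first neurosphere library, without which it differed by 3.43. Cyr61, a matrix protein known as an early target of growth factors, stood at 2.58, 1.80 and 1.23 FPKM in hippocampi and 109 and 107 FPKM in neurospheres. Lhfpl3, known from oligodendrocyte precursors, stood at 10.4, 9.60 and 9.27 and at 253 and 236 FPKM. In both genes the groups were far apart, and the spread within hippocampi was wider in Cyr61.

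**Figure D2:**
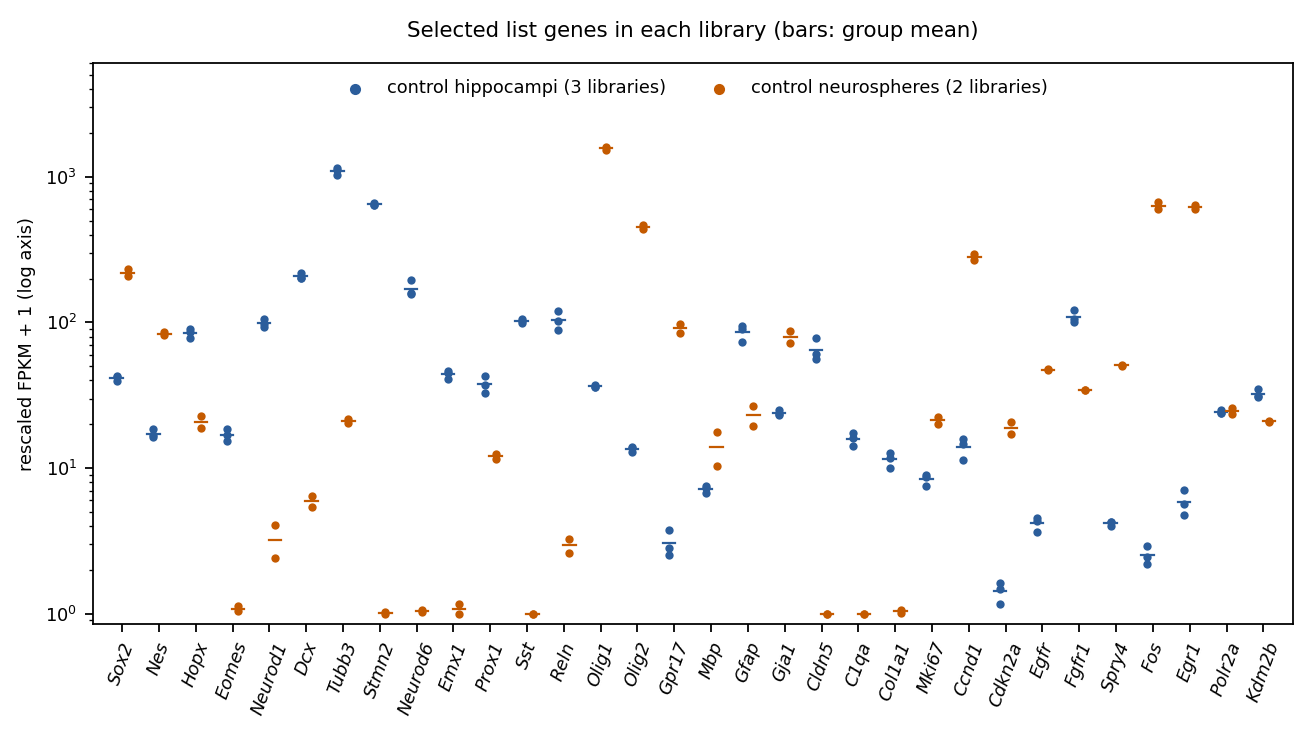
Rescaled FPKM + 1 (log axis) of 32 genes of the lists in each of the 3 control hippocampus libraries (left, blue) and 2 control neurosphere libraries (right, orange), with the group mean as a bar. Polr2a overlaps between the groups, and in each of the other genes all libraries of one kind lie above those of the other.

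Most markers of glutamatergic neurons were lower in culture, many of them near 0. Of 21 neuronal genes tested, 18 were higher in hippocampi and 1 was higher in neurospheres, with a median difference of -4.16 on the log2 scale against -0.12 for all genes. In a bulk sample, fewer cells of a type and less RNA per cell cannot be told apart. Neurod6, a transcription factor of pyramidal neurons, was at 159, 194 and 157 FPKM in hippocampi and at 0.0679 and 0.0291 FPKM in neurospheres, a difference of -7.34 ± 0.096 (SE) (limma, adjusted p = 3.14e-10). Tbr1, which specifies early born neurons, was at 35.3, 33.01 and 32.8 FPKM in hippocampi and 0.138 and 0.151 FPKM in neurospheres. Slc17a7, the vesicular glutamate transporter, was at 90.1, 109 and 75.2 and 0.0278 and 0.11 FPKM. None of these 3 genes reached 1 FPKM in a neurosphere library. The cytoskeletal genes kept some signal: Tubb3, the neuronal tubulin, fell from a mean of 1098 to 19.96 FPKM, and Dcx, a microtubule protein of migrating neurons, from 206 to 4.91 FPKM. Tubb3 was thus 54.98-fold and Dcx 41.96-fold higher in hippocampi. Map2, often used as a neuronal marker, was at 178 ± 5.29 FPKM (SD, n = 3) in hippocampi and 179 ± 6.44 FPKM (SD, n = 2) in neurospheres and passed no call. Nrn1, a membrane protein of neurites, was the exception and was 3.50-fold higher in neurospheres, a call that ended with the cKO libraries, at 0.98. The summed level of the list ran from 3605 to 3616 FPKM in the hippocampi and from 431 to 452 FPKM in the neurospheres.

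Neurogenic transcription factors fell while a few genes linked to leaving the cell cycle or to Notch signalling rose. Of 13 genes tested in the intermediate progenitor and neurogenic list, 8 were higher in hippocampi and 4 in neurospheres. Eomes, the defining factor of intermediate progenitors, was at 15.8, 17.6 and 14.3 FPKM in hippocampi and 0.0358 and 0.134 FPKM in neurospheres, a difference of -3.96 ± 0.11 (SE) on the log2 scale (limma, adjusted p = 1.19e-08). Neurod1 was at 92.5, 104 and 97.02 FPKM in hippocampi and 1.40 and 3.04 FPKM in neurospheres. Insm1, which drives progenitors out of the ventricular zone, had means of 38.7 and 2.06 FPKM. Neurog2, the proneural factor that acts before these, was still at 2.93 and 2.38 FPKM in neurospheres, against 9.91, 11.5 and 9.28 FPKM in hippocampi, so it was 3.86-fold higher in the tissue. The 4 genes higher in neurospheres were Dll3, Btg2, Gadd45g and Dll1. Dll3, an inhibitory Notch ligand, rose from 5.93 to 95.1 FPKM. Btg2, an antiproliferative gene, rose from 5.38 to 46.7 FPKM, and Gadd45g and Dll1 were 6.22-fold and 2.94-fold higher. The difference of Btg2 in the cKO libraries was 0.56, below the threshold for a call.

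Markers of cells that migrate into the hippocampus from elsewhere were also low in culture. All 8 Cajal-Retzius markers tested were higher in hippocampi, with a median of -2.96 on the log2 scale. Reln, the secreted guide of neuronal layering, was at 101, 88.3 and 119 FPKM in hippocampi and 2.28 and 1.63 FPKM in neurospheres, a 52.6-fold difference. Trp73 was at 12.1, 11.4 and 14.02 and 0.152 and 0.196 FPKM, and Lhx1 and Lhx5 were listed at 0 in both neurosphere libraries. The summed markers ran from 241 to 272 FPKM in the hippocampi and from 4.43 to 5.08 FPKM in the neurospheres. Of 15 interneuron genes tested, 13 were higher in hippocampi. Sst, the peptide somatostatin, was at 104, 98.1 and 101 FPKM in hippocampi and listed at 0 in both neurosphere libraries, as were Slc32a1, Lhx6, Dlx5, Dlx6 and Nkx2-1. In the cKO comparison Dlx6 fell just short of a call, at -0.9994. Dlx2 was at 11.98, 10.4 and 12.4 FPKM in hippocampi and 0.114 and 0.0422 FPKM in neurospheres. The enzymes that make GABA parted ways. Gad2 was at 11.3, 9.96 and 10.7 FPKM in hippocampi and 0.129 and 0.0523 FPKM in neurospheres, whereas Gad1 was at 36.9, 33.03 and 33.6 FPKM and 38.3 and 38.4 FPKM, a difference of 0.15 ± 0.063 (SE) on the log2 scale that passed no call (limma, adjusted p = 0.0567). Erbb4, a neuregulin receptor also known from progenitors and glia, was the interneuron list's one gene higher in neurospheres, 3.44-fold, and it missed the call with the cKO libraries, at 0.98.

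Receptors and guidance molecules followed the neurons, with exceptions among AMPA receptor subunits. Of 20 glutamate and GABA receptor genes, 14 were higher in hippocampi and none in neurospheres. Grin2b, the NMDA receptor subunit of young neurons, was at 34.2, 38.7 and 37.5 FPKM in hippocampi and 0.023 and 0.021 FPKM in neurospheres, and Gabra5 was at 69.1, 72.00 and 64.2 and 0 and 0.0219 FPKM. Neither reached 0.1 FPKM in a neurosphere library. The AMPA receptor subunit Gria1 was 13.8-fold higher in hippocampi, with means of 95.3 and 6.90 FPKM. Gria2 was instead at 95.1, 99.99 and 106 FPKM in hippocampi and 148 and 162 FPKM in neurospheres, a difference of 0.62 ± 0.069 (SE) that stayed under the call threshold, and Gria3 and Gria4 were not called either. Of 24 axon guidance genes, 21 were higher in hippocampi, with a median of -2.53. Cntn2 and L1cam, adhesion molecules of axons, had means of 86.99 and 71.4 FPKM in hippocampi and of 0.178 and 0.0509 FPKM in neurospheres. The netrin receptor Dcc was at 38.4, 41.7 and 42.9 FPKM in hippocampi and 5.53 and 5.93 FPKM in neurospheres, and the semaphorin receptor subunit Plxna4 was 22.6-fold higher in hippocampi. Ntn1, the netrin ligand itself, went the other way, from 3.32 to 22.3 FPKM.

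Regional factors of the dorsal telencephalon were lower in culture but most were still expressed. Of 16 genes tested, 12 were higher in hippocampi and none in neurospheres, and 4 were not called. Lhx2, the selector of cortical against hem fate, was at 133, 122 and 125 FPKM in hippocampi and 48.4 and 48.98 FPKM in neurospheres, and Emx2 was at 29.5, 28.4 and 29.1 and 13.5 and 13.8 FPKM. They were 2.60-fold and 2.13-fold higher in hippocampi, with no overlap between groups, and Emx2 fell short of the call without rescaling, at -0.80. Emx1, whose promoter drives Cre in the study's knockouts, showed a steeper loss, from 43.1 ± 2.61 FPKM (SD, n = 3) to 0.0787 ± 0.111 FPKM (SD, n = 2). Prox1, the factor of dentate granule cells, was at 31.9, 42.02 and 36.3 FPKM in hippocampi and 10.5 and 11.5 FPKM in neurospheres. Zbtb20, which sets hippocampal against neocortical identity and shares its entry with Mir568, was at 39.6, 53.6 and 44.9 and 5.47 and 5.81 FPKM. Nr2f2, known from caudal and ventral forebrain, went from 33.6 to 0.398 FPKM, while its relative Nr2f1 had means of 92.6 and 48.7 FPKM and was not called. Dmrta2 and Meis2 had somewhat higher means in neurospheres, 17.1 and 18.7 FPKM against 11.5 and 13.3 FPKM, without a call.

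Most vessel, immune, meningeal and blood markers were lower in neurospheres, many of them near 0. Of the endothelial and pericyte genes tested, 10 of 11 were higher in hippocampi, as were 11 of 12 microglial, 9 of 10 meningeal and 4 of 4 erythroid genes. Cldn5, the tight junction protein of brain vessels, was at 77.4, 55.1 and 59.8 FPKM in hippocampi and listed at 0 in both neurosphere libraries. The complement gene C1qa of microglia was at 16.4, 13.2 and 15.1 FPKM in hippocampi and the chemokine receptor Cx3cr1 at 4.30, 3.79 and 4.56 FPKM, and each was listed at 0 in both neurosphere libraries. The summed microglial markers, the gene not called included, ran from 111 to 124 FPKM in the hippocampi and from 19.6 to 23.4 FPKM in the neurospheres. Col1a1 was at 11.6, 9.05 and 10.7 FPKM in hippocampi and 0.00768 and 0.0679 FPKM in neurospheres, and Dcn at 11.2, 5.91 and 9.93 and 0 and 0.0335 FPKM. The summed meningeal markers ran from 65.02 to 84.8 FPKM in the hippocampi and from 5.10 to 6.65 FPKM in the neurospheres, and Foxc1, which was not called, gave most of the neurosphere sum. Pecam1, which shares its entry with Polg2, was the endothelial gene tested and not called, with means of 10.1 and 4.61 FPKM. The globin entry of Hbb-bs and Hbb-b1 was at 85.6, 47.2 and 99.3 FPKM in hippocampi, and the summed erythroid markers ran from 114 to 255 FPKM in the hippocampi and were listed at 0 in both neurosphere libraries. Hba-a1 and Hba-a2 share an entry and so are the same measurement, which entered the erythroid sum and the 4 genes once for each name. Alas2 had a mean of 1.60 FPKM in hippocampi.

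Genes of ciliated ependyma and of choroid plexus were low too. Of 10 cilium genes tested, 9 were higher in hippocampi. Foxj1, the master factor of motile cilia, was at 65.3, 65.6 and 64.4 FPKM in hippocampi and 18.1 and 19.9 FPKM in neurospheres, in an entry it shares with Rnf157. The cilium protein Rsph1 was at 9.75, 7.80 and 10.2 and 0 and 0.167 FPKM. Of the choroid plexus list, 4 of 10 genes were high enough to test. Ttr, its main secreted product, was at 4.24, 3.92 and 15.2 FPKM in hippocampi and 0 and 0.226 FPKM in neurospheres, so a single hippocampus gave most of the signal. Sostdc1 and Calml4, with means of 2.07 and 1.81 FPKM in hippocampi and listed at 0 in neurospheres, were the other choroid plexus genes called, and Aqp1 was not called. The call of Calml4 ended with the cKO libraries, at -0.68.

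Markers of radial glia and neural stem cells were mostly higher in neurospheres, with a few genes on the other side. Of 15 genes tested, 9 were higher in neurospheres and 2 in hippocampi, with a median of 1.73 on the log2 scale. Sox2, the pluripotency and neural stem cell factor, was at 41.8, 41.4 and 38.6 FPKM in hippocampi and 232 and 206 FPKM in neurospheres, a difference of 2.40 ± 0.067 (SE) (limma, adjusted p = 9.99e-09). Nes, the intermediate filament nestin, was at 17.4, 15.3 and 15.8 and 84.8 and 80.5 FPKM, and Vim went from 171 to 1131 FPKM. They were 5.11-fold and 6.61-fold higher in neurospheres. Sox9 and Sox3 were 6.03-fold and 13.5-fold higher. Fabp7, the brain lipid binding protein of radial glia, was high in both, at 845, 798 and 815 FPKM in hippocampi and 2207 and 1925 FPKM in neurospheres, where its entry also names Smpdl3a. Pax6 was at 5.62, 5.78 and 6.22 FPKM and 7.96 and 7.18 FPKM and was not called. Hes5, a Notch target of radial glia, was at 33.8, 31.2 and 37.1 FPKM in hippocampi, where its entry also names Pank4, and at 19.1 and 18.9 FPKM in neurospheres, without a call. The genes higher in hippocampi were Hopx and Prom1. Hopx, known from radial glia that will form dentate stem cells, fell from 83.7 ± 5.67 FPKM (SD, n = 3) to 19.9 ± 2.73 FPKM (SD, n = 2). Prom1, the CD133 antigen of apical membranes and cilia, fell from 7.66 to 2.15 FPKM, and missed the call with the cKO libraries, at -0.88. By percentile within library, 4 genes of the list were called higher in neurospheres and 1 in hippocampi.

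Among the cell type lists, the oligodendrocyte lineage had the highest median in favour of neurospheres. Of its 13 genes tested, 12 were higher in neurospheres and none in hippocampi, with a median of 3.49 on the log2 scale. Olig1 was at 35.1, 34.9 and 35.9 FPKM in hippocampi and 1598 and 1537 FPKM in neurospheres, a difference of 5.43 ± 0.053 (SE) (limma, adjusted p = 1.95e-10). Its neighbour Olig2, which specifies the lineage and also marks cultured progenitors, was at 12.9, 11.9 and 12.8 and 465 and 440.4 FPKM. Olig1 and Olig2 were 44.4-fold and 36.1-fold higher, with the libraries of each group close together. Genes of precursors rose with them: Cspg4, the NG2 proteoglycan, was 13.98-fold and Pdgfra, the PDGF receptor in an entry with Mir7025, 3.67-fold higher. Pdgfra was at 10.97, 11.2 and 10.8 FPKM in hippocampi and 39.5 and 41.4 FPKM in neurospheres. Gpr17, a receptor of committed precursors, went from 2.04 to 89.98 FPKM, and Bcas1 from 1.89 to 39.5 FPKM. Genes of myelin were mixed. Cnp, an enzyme of myelin sheaths, went from 11.1 to 87.03 FPKM, but Mbp was at 5.74, 6.48 and 6.27 FPKM in hippocampi and 9.41 and 16.6 FPKM in neurospheres and was not called. Mag, Mog and Opalin stayed under the level for a test, with no mean above 0.53 FPKM. Sox10 was at 3.48, 4.80 and 2.85 FPKM in hippocampi and 8.44 and 11.00 FPKM in neurospheres, a 2.62-fold difference. With the cKO libraries in place of the controls, 7 of 12 genes tested were higher in neurospheres and 1 in hippocampi, with a median of 1.30, and Pdgfra then differed by -0.04, Sox10 by 0.15, Gpr17 by 0.94 and Mbp by -1.77.

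Astrocyte genes moved in both directions. Of 15 tested, 10 were higher in neurospheres and 2 in hippocampi, with a median of 1.56. Gfap, the intermediate filament of astrocytes and of adult stem cells, was at 88.9, 72.1 and 93.2 FPKM in hippocampi and 18.3 and 25.9 FPKM in neurospheres, and Aqp4, the water channel of astrocyte endfeet, was at 10.9, 12.2 and 10.6 and 3.13 and 2.46 FPKM. Both were lower in neurospheres, with differences of -1.90 and -1.69 on the log2 scale. Gja1, the gap junction protein connexin 43, was at 22.5, 22.3 and 24.1 FPKM in hippocampi and 86.8 and 70.8 FPKM in neurospheres, 3.43-fold higher. Acsbg1, an enzyme of lipid metabolism, was 10.6-fold higher, and Glul, which makes glutamine and shares its entry with Mir8114, 2.99-fold. The value of Aldoc in neurospheres, 187 and 153 FPKM, came from an entry that also names Pigs, and on its own name alone the difference turned to -5.15, so its direction is uncertain. Slc1a2, a glutamate transporter, had means of 53.1 and 63.5 FPKM and was not called. The astrocyte counts depended on which libraries were compared. With the cKO libraries, 2 genes were higher in neurospheres and 4 in hippocampi, with a median of -0.30. Gja1 then differed by -1.94, Aldoc by -0.30 and Glul by -0.21.

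**Figure D3:**
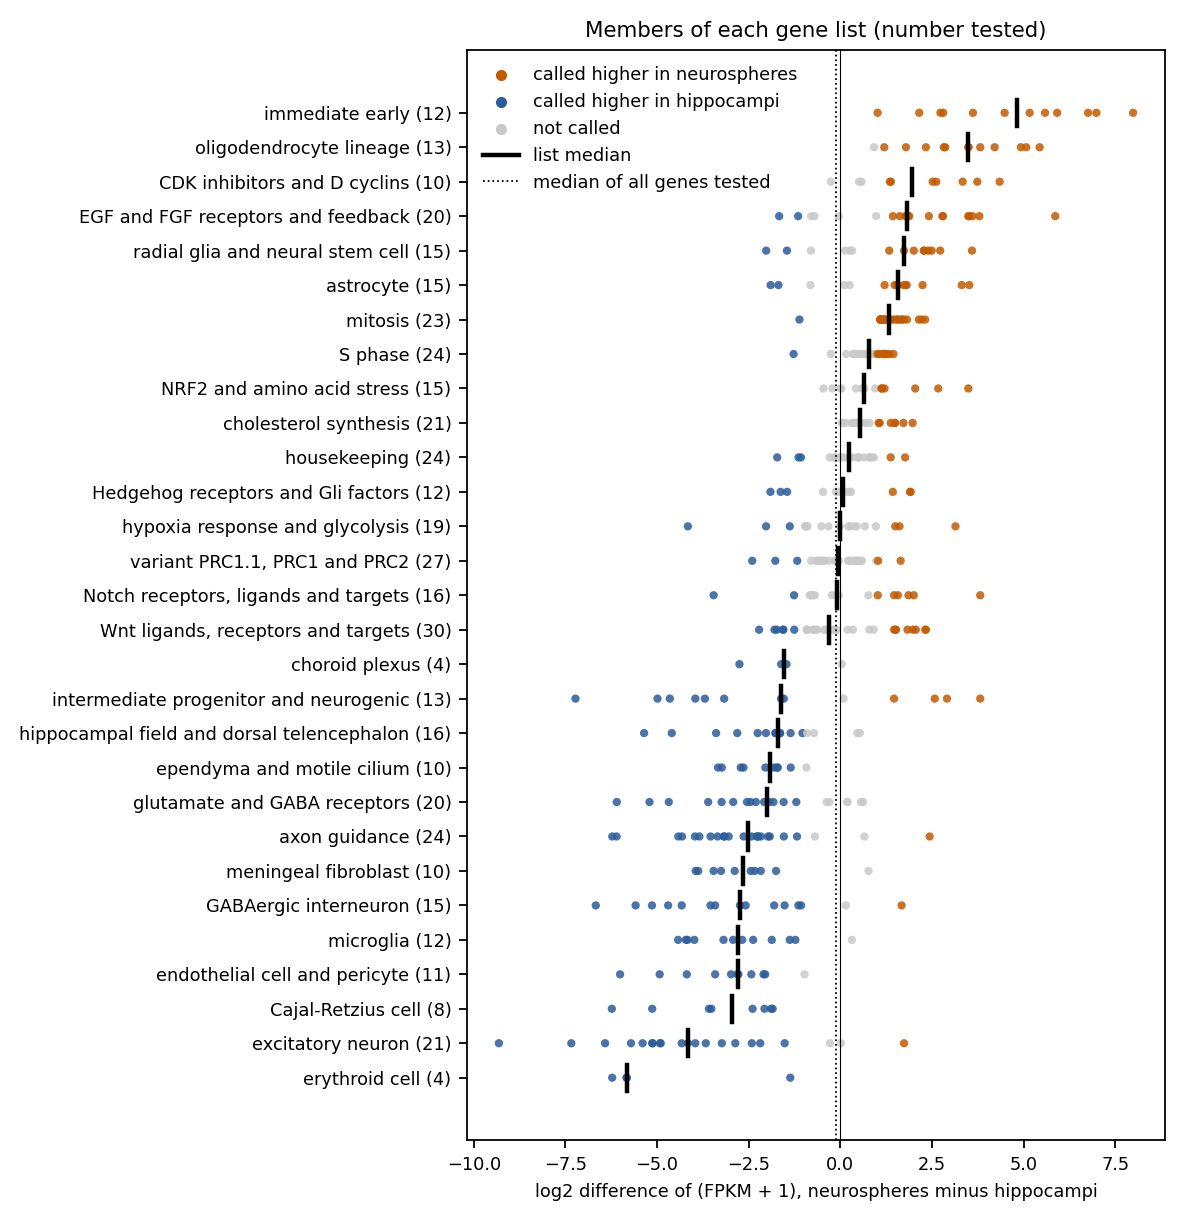
Difference on the log2(FPKM + 1) scale, neurospheres minus hippocampi, of each member tested in 29 gene lists (points, coloured by call), with the list median (bar) and the median of all 12575 genes (dotted line, -0.12). Immediate early and oligodendrocyte lineage lists lie furthest to the right, with medians of 4.82 and 3.49, and erythroid and excitatory neuron lists furthest to the left, with -5.83 and -4.16.

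Genes of mitosis were higher in neurospheres almost throughout, and those of DNA replication by less. Of 23 mitotic genes, 22 were higher in neurospheres, with a median of 1.33. Mki67, the antigen of cycling cells, was at 7.73, 8.03 and 6.55 FPKM in hippocampi and 21.5 and 18.99 FPKM in neurospheres, a difference of 1.33 ± 0.10 (SE) (limma, adjusted p = 3.63e-06). Ccnb1, the cyclin of mitotic entry, was at 9.05, 8.06 and 6.96 and 40.05 and 37.04 FPKM, and its kinase Cdk1 was at 8.23, 6.73 and 6.49 and 18.1 and 18.7 FPKM. Top2a, which untangles chromosomes, was 3.08-fold and Ube2c, which triggers exit from mitosis, 4.91-fold higher. The exception was Plk1, with means of 48.3 FPKM in hippocampi, from an entry that also names Dctn5, and 21.7 FPKM in neurospheres, from an entry of its own, and it lost its call without rescaling, at -0.88, and with the cKO libraries, at -0.24. Of 24 S phase genes, 8 were higher in neurospheres and 1, the thymidylate synthase gene Tyms, in hippocampi, with a median of 0.77. The count higher in neurospheres was 12 without rescaling and 13 by percentile. The helicase subunit Mcm5 was at 9.65, 9.68 and 9.28 FPKM in hippocampi and 21.1 and 20.9 FPKM in neurospheres, and Rrm2, which makes deoxynucleotides, was at 18.2, 18.9 and 16.4 and 45.7 and 47.1 FPKM. Mcm2 and Pcna, whose neurosphere entry also names Tmem230, lay just under the call, at 0.90 and 0.94 on the log2 scale, with no overlap between groups. In the cKO libraries 22 of 24 S phase genes were higher in neurospheres, with a median of 1.82, Tyms differed by -0.24, and the mitotic median was 2.41.

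Promoters of these genes were searched for short motifs that cell cycle factors are known to read. RefSeq promoter windows of GRCm38.p6, from 250 bases before to 50 after a start site, matched 20 S phase and 19 mitotic genes and 9203 of all genes tested. An E2F site, searched on both strands as TTTNNCGC with C or G at each N, stood in the windows of 9 of the 20 S phase genes and in 4.57% of all genes. The CHR element of genes expressed late in the cycle, TTTGAA on either strand, stood in 14 of the 19 mitotic genes and in 13.5% of all genes. A match is a description of these letters and not a binding site. Examples are given from gene Mcm5 (chr8:75109259-75109558, plus strand, E2F matches in capitals, which overlap), Cdk1 (chr10:69352863-69353162, minus strand, CHR matches in capitals) and Ube2c (chr2:164769679-164769978, plus strand, CHR match in capitals).
Mcm5: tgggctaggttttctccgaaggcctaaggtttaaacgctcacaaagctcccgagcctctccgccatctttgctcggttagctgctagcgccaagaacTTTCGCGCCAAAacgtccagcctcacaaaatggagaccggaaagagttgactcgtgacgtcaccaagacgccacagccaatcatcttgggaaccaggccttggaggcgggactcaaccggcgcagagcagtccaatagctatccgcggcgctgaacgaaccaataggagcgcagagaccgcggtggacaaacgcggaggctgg
Cdk1: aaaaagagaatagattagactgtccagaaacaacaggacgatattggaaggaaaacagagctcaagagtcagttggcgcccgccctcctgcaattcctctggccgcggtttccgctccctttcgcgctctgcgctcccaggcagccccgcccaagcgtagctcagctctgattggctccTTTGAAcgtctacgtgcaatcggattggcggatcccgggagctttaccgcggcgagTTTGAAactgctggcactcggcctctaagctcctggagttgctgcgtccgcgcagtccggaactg
Ube2c: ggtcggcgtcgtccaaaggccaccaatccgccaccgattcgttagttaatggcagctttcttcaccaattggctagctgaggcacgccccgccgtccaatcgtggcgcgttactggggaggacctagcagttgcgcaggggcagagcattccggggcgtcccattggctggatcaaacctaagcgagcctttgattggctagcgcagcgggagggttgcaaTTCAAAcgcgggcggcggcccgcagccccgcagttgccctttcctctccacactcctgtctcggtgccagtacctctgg

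D-type cyclins and several inhibitors of their kinases were higher in neurospheres. Of 10 genes, 7 were higher in neurospheres and none in hippocampi. Ccnd1, the cyclin that growth factors induce, which shares its entry with Mir3962, was at 13.7, 10.4 and 14.9 FPKM in hippocampi and 269 and 292 FPKM in neurospheres, a 21.6-fold difference. Ccnd2 was at 36.4, 39.8 and 39.8 and 96.8 and 107 FPKM and Ccnd3 was 2.65-fold higher. Among inhibitors, Cdkn2a, the Ink4a and Arf locus known to rise with passage in culture and to be held down by polycomb, was at 0.616, 0.174 and 0.472 FPKM in hippocampi and 16.02 and 19.6 FPKM in neurospheres. Cdkn2b went from 0.548 to 8.43 FPKM, Cdkn1a, the p21 gene, from 7.50 to 83.8 FPKM and Cdkn2c from 9.80 to 60.7 FPKM. Inhibitors and cyclins were thus higher in the same libraries. Cdkn1c, the p57 gene, was at 16.8, 11.3 and 16.9 FPKM in hippocampi and 21.6 and 21.2 FPKM in neurospheres and was not called, nor were Cdkn1b and Cdkn2d. In the cKO libraries Cdkn1c differed by -1.49.

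The EGF receptor and the feedback genes of its pathway were higher in neurospheres, which were grown with EGF and FGF2, while FGF receptors differed among themselves. Of 20 genes, 14 were higher in neurospheres and 2 in hippocampi. Egfr was at 3.33, 3.56 and 2.64 FPKM in hippocampi and 45.98 and 46.8 FPKM in neurospheres, 14.6-fold higher. Fgfr1 was 3.26-fold higher in hippocampi, with means of 109 and 33.3 FPKM, and Fgfr3 3.62-fold higher in neurospheres, while Fgfr2 was not called. Inhibitors that the pathway itself induces rose: Spry4 was at 3.02, 3.27 and 3.30 FPKM in hippocampi and 49.5 and 50.2 FPKM in neurospheres, and Spry2 and Spry1 were 14.8-fold and 12.1-fold higher. The phosphatase Dusp6 was at 16.04, 15.6 and 14.5 and 62.9 and 55.4 FPKM, but its relative Dusp4 was 2.28-fold higher in hippocampi. The transcription factor Etv5 was at 14.3, 15.5 and 13.9 FPKM in hippocampi and 81.1 and 82.7 FPKM in neurospheres, and Ier3 went from 0.934 to 111 FPKM. The call of Dusp4 was lost without rescaling, at -0.91, and with the cKO libraries, at -0.88, and Fgfr3 then differed by 0.35.

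All 12 immediate early genes were higher in neurospheres, against 10.3% of all genes, with a median of 4.82 on the log2 scale. The neurosphere value of Ier2 came from an entry that also names Nacc1, and joined on name alone Ier2 differed by -1.78 in place of 4.48, which leaves 11 of 12. These genes answer growth factors, calcium or handling of cells within minutes. Fos was at 1.90, 1.19 and 1.45 FPKM in hippocampi and 667 and 596 FPKM in neurospheres, a difference of 7.98 ± 0.11 (SE) (limma, adjusted p = 4.74e-10). Egr1 was at 6.09, 3.75 and 4.66 and 643 and 599 FPKM. Each neurosphere library was far above each hippocampus in both genes. Fosb, a relative of Fos, had means of 0.0692 and 134 FPKM, Junb 2.97 and 237 FPKM, and the nuclear receptor Nr4a1 6.02 and 335 FPKM. Npas4, known mainly from active neurons, had the smallest difference of the list at 1.01, with neurosphere values of 2.92 and 5.07 FPKM, and Arc went from 1.22 to 14.6 FPKM. With the cKO libraries 10 of 12 were higher in neurospheres, with a median of 3.61, and Arc and Npas4 fell short of a call, at 0.70 and 0.43.

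The CArG box that serum response factor reads was found, on either strand, in the RefSeq promoter window of 1 of 8 immediate early genes with a window, Egr2, and in 1.62% of all genes. Egr2 had 5 windows, of which 4 held the box, and the first of those is shown with the box in capitals (chr10:67537316-67537615, plus strand). No match says only that these letters are not in such a window. Egr2 had means of 0.443 FPKM in hippocampi and 50.5 FPKM in neurospheres.
Egr2: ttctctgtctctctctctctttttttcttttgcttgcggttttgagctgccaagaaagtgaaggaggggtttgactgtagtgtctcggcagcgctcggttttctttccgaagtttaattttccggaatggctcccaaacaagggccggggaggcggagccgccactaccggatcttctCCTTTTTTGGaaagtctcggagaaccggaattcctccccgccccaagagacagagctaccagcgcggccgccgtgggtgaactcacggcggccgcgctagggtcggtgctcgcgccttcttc

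**Figure D4:**
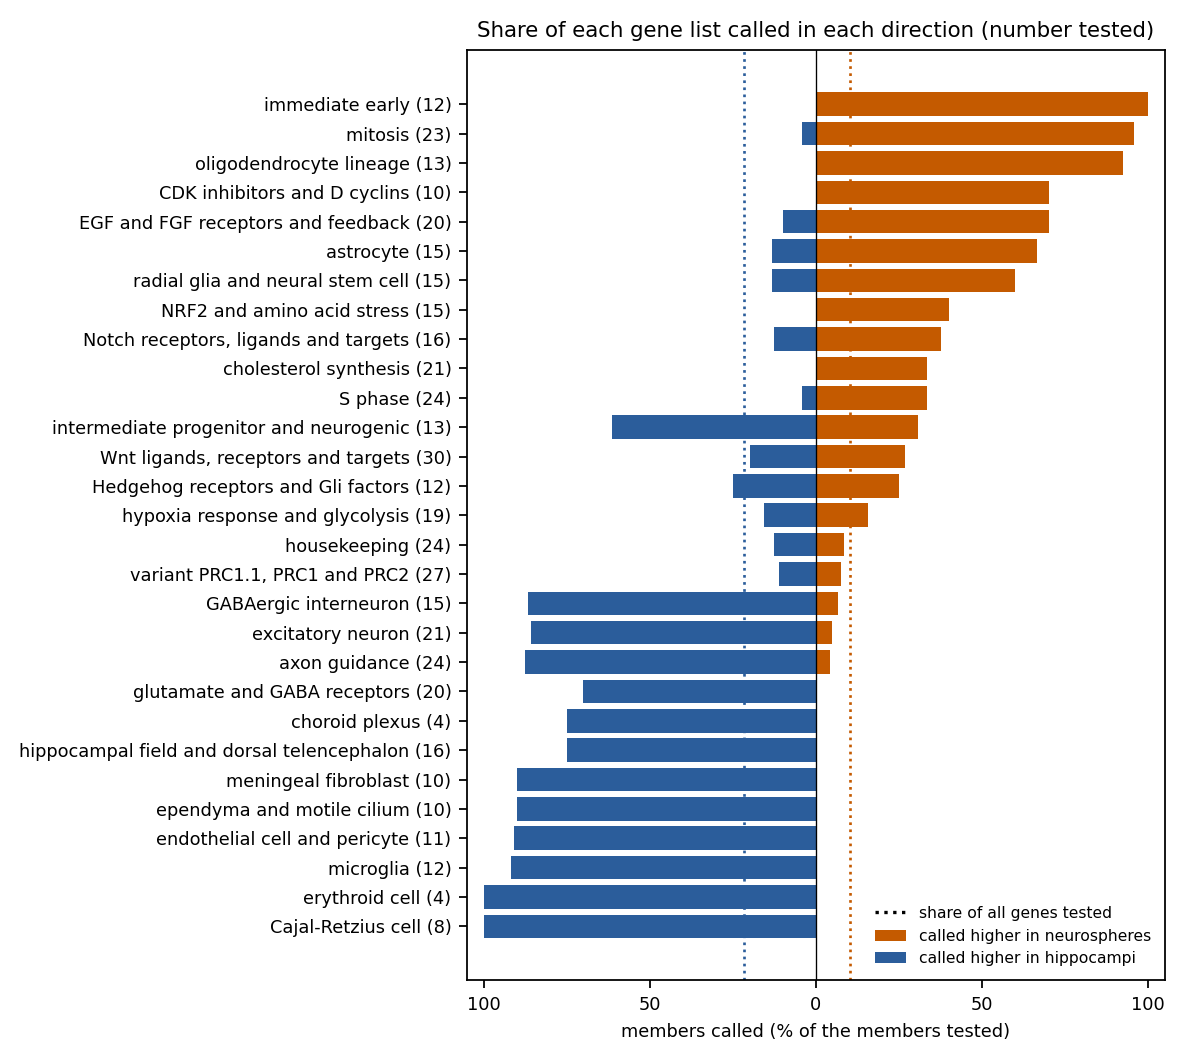
Share of the members tested that were called higher in neurospheres (right, orange) or higher in hippocampi (left, blue) in each of 29 gene lists, with the share of all genes tested as dotted lines at 10.3% and 21.6%. All immediate early genes and 22 of 23 mitotic genes fall to the right, and all Cajal-Retzius and erythroid genes tested to the left.

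Signalling pathways of the hippocampal niche held genes on both sides. Of 30 Wnt genes tested, 8 were higher in neurospheres and 6 in hippocampi, and 16 were not called. Of all genes tested, 10.3% were higher in neurospheres and 21.6% in hippocampi, so the Wnt count for hippocampi was near the share of all genes. Among ligands, Wnt8b, expressed at the hippocampal margin, was at 2.61, 1.17 and 2.30 FPKM in hippocampi and listed at 0 in both neurosphere libraries, while Wnt7b was at 21.9, 21.7 and 22.2 and 28.4 and 27.8 FPKM without a call. Of the receptors, Fzd7 was 4.23-fold higher in hippocampi, and Fzd5, Fzd9 and Fzd10 were higher in neurospheres. The secreted antagonists were opposed. Sfrp1 fell from 8.33 to 0.994 FPKM, while Sfrp2 was at 3.40, 3.50 and 3.88 FPKM in hippocampi and 10.8 and 12.6 FPKM in neurospheres. The targets were split too: Axin2 was at 15.2, 15.3 and 17.4 FPKM in hippocampi, in an entry with Cep112, and 9.63 and 8.46 FPKM in neurospheres, without a call. Notum and Sp5 were higher in hippocampi, and Lgr5, Nkd1 and Rnf43, whose hippocampal entry names another transcript too, were higher in neurospheres. Among nuclear factors, Tcf7 was 4.10-fold higher in hippocampi and Tcf7l2, at 1.24, 0.854 and 0.971 and 6.17 and 6.15 FPKM, 6.04-fold higher in neurospheres. The balance moved with the scale, to 10 higher in neurospheres and 3 in hippocampi by percentile and to 8 and 10 with a pseudocount of 0.1. In the cKO libraries it was 5 and 11, and Fzd9, Rnf43, Tcf7 and Tcf7l2 fell short of a call, at 0.31, 0.96, -0.45 and 0.69.

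In the Notch pathway 6 of 16 genes tested were higher in neurospheres and 2 in hippocampi. The shares of all genes tested, for these and the Hedgehog genes below, were 10.3% and 21.6%. The receptor Notch1 was at 16.3, 14.8 and 15.9 FPKM in hippocampi and 32.8 and 32.7 FPKM in neurospheres, a difference of 1.02 ± 0.064 (SE) that sat at the threshold and fell below it with the cKO libraries, at 0.93, and without hippocampus 2, at 0.98. The ligands Jag1 and Jag2 moved apart: Jag1 rose from 3.37 to 14.8 FPKM and Jag2, in an entry with Mir6941, fell from 13.98 to 0.362 FPKM. Of the targets, Hes1 rose 4.62-fold and Heyl fell, from 1.67 to 0.111 FPKM, and Hey1 was at 12.9, 11.2 and 12.3 FPKM in hippocampi and 20.6 and 21.96 FPKM in neurospheres without a call. In the cKO comparison 4 Notch genes were higher in neurospheres and 6 in hippocampi, and Hes1 differed by 0.54. In the Hedgehog pathway, 3 of 12 genes tested were higher in neurospheres, namely Shh, Ptch1 and Gas1, and 3 in hippocampi, Gli1 and Gli3 among them. Ptch1, the receptor and a target of the pathway, was at 6.005, 7.13 and 6.37 FPKM in hippocampi and 27.3 and 26.4 FPKM in neurospheres. Gli1, the other classical target, was at 3.39, 1.98 and 3.33 FPKM in hippocampi and 0.0203 and 0.0249 FPKM in neurospheres. These targets therefore differed in opposite directions between the same libraries. The ligand gene Shh had means of 0.252 and 3.74 FPKM.

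Polycomb genes, among them the gene whose CxxC zinc finger the study removes elsewhere in the series, were mostly not called. Of 27 genes tested, 22 were not called, against 68.1% of all genes tested. Kdm2b, which brings the variant PRC1.1 complex to CpG islands, was at 34.1, 30.4 and 29.97 FPKM in hippocampi and 20.1 and 19.8 FPKM in neurospheres, a difference of -0.63 ± 0.070 (SE) that did not overlap between groups but stayed under the call threshold (limma, adjusted p = 4.41e-05). Of the PRC2 enzymes, Ezh2, the form of dividing cells, was at 17.2, 18.6 and 17.1 and 27.9 and 25.8 FPKM, and Ezh1 at 7.01, 6.62 and 6.03 and 6.07 and 6.30 FPKM. Only Ezh1 overlapped between groups, and neither was called. Of the genes called, 2 were higher in neurospheres and 3 in hippocampi. Among them, Cbx8 was 2.22-fold higher in neurospheres, while Pcgf2, Rybp and Cbx6 were 3.72-fold, 2.47-fold and 5.46-fold higher in hippocampi. Cbx6 shares its entry with Npcd and Nptxr, a pair of neuronal genes, and Cbx7 was not called. The call of Cbx8 was lost under several alternatives, among them without neurosphere 1, at 0.97, without hippocampus 3, at 0.94, and with the cKO libraries, at 0.15, and that of Rybp without rescaling, at -0.96.

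Metabolic and stress lists differed in degree. All 21 cholesterol genes had a higher mean log2 value in neurospheres, and 7 were called, with a median of 0.53. Hmgcs1 and Sqle, enzymes of early and middle steps, differed by 0.57 and 0.36 without a call. Insig1, the sensor that restrains synthesis, was at 36.1, 37.9 and 35.1 FPKM in hippocampi and 141 and 149.7 FPKM in neurospheres, 3.995-fold higher. By percentile within library 3 of the 21 were called. In the hypoxia and glycolysis list 3 of 19 genes were higher on each side. Of all genes, 10.3% were higher in neurospheres and 21.6% in hippocampi. Ldha was at 203, 193 and 195 FPKM in hippocampi and 142 and 133 FPKM in neurospheres, Slc2a1 at 28.6, 29.9 and 25.4 and 13.96 and 14.3 FPKM, and Vegfa had means of 20.3 and 16.03 FPKM, all without a call. Adm, Egln3 and Eno1 were higher in neurospheres and Ndrg1, Pfkp and Hk2 in hippocampi, of which Ndrg1 fell furthest, from 21.6 to 0.257 FPKM. In the cKO comparison 5 were higher in neurospheres and 2 in hippocampi, Hk2 differed by -0.34, and the median moved from -0.01 to 0.60. Of 15 oxidative and amino acid stress genes, 6 were higher in neurospheres. Nqo1 was at 1.54, 0.973 and 1.05 FPKM in hippocampi and 4.06 and 3.96 FPKM in neurospheres, short of a call with the cKO libraries at 0.70, and Hmox1 and the stress factors Atf3 and Ddit3 rose, Ddit3 from 7.28 to 33.1 FPKM. The cystine transporter Slc7a11 was at 2.82, 1.99 and 3.34 and 3.06 and 2.34 FPKM, overlapping, and Asns was not called, with means of 23.9 and 20.3 FPKM.

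Most genes commonly used as references were not called. Of 24 tested, 19 passed no call, against 68.1% of all genes tested, with a median of 0.24. Polr2a was at 22.8, 23.02 and 23.9 FPKM in hippocampi and 22.5 and 24.7 FPKM in neurospheres, and Tbp at 12.99, 12.3 and 11.4 and 13.9 and 14.96 FPKM. B2m and Gusb were 3.43-fold and 2.82-fold higher in neurospheres, and Reep5, Ywhaz and Hprt 3.38-fold, 2.22-fold and 2.17-fold higher in hippocampi. Hprt and Ywhaz lost their calls without rescaling, at -0.84 and -0.89, and Hprt also without neurosphere 1, at -0.95. In the cKO comparison Hprt differed by 0.022, Ywhaz by -0.52 and Gusb by 0.91. Without rescaling, 6 of the 24 genes were higher in neurospheres and 1 in hippocampi. The X-linked genes tested, 401 of them, had a median difference of -0.09, close to the -0.13 of 11203 autosomal genes.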

How the data were processed

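Poly(A) RNA of 3 control hippocampi and 2 control neurosphere libraries was sequenced as paired ends. According to the methods, the authors trimmed reads with cutadapt, aligned them to mm10 with STAR and computed FPKM with Cufflinks 2.2.1, and the deposited FPKM tables, 1 for hippocampi and 1 for neurospheres, were made separately. Apart from the nominal depth in the methods, the depth reached by each library is unknown. The other 13 libraries of the series entered no control comparison.

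Tables were joined on gene name. Names with the same set of entries in both tables were kept, with the entry of highest mean, which left 22205 of 22406 shared names, and 27 list genes with differing entries were added from the highest entry that holds the name. This join was chosen after values were seen. Entries without a name, 2861 of 27180 and 2059 of 26293, and Mir6236 were dropped. The 3 list genes Cfap65, Hbb-bt and Epop were not found in both tables.

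Values were rescaled by median ratios, logged as log2(FPKM + 1) and fitted, where genes averaged 0.5 FPKM or above, with limma 3.58.1 in R 4.3.3, with a trended prior and Benjamini-Hochberg adjustment over 12575 genes. Calls needed an adjusted p below 0.05 and a difference above 1. The fit was tested on simulated data made from these 12575 genes: of 200 changed genes 199 were called at a log2 difference of 1.5 and 199 at 2. The changed genes were drawn from the better expressed genes only, with independent normal noise. This recovery therefore does not describe genes near the filter, or data in which as many genes differ as here. Folds are ratios of mean rescaled FPKM.

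The comparison and the gene lists were chosen with earlier results of these data known. Genes named by rule were the lead genes of each list, the 10 largest separated differences in each direction, the 5 highest genes of those near 0 in the other kind of sample, the 5 of highest mean in each kind, and members of lists with 5 or fewer calls in a direction. Other genes, and the gene families of the closing section, were chosen after their values were seen. The alternatives were other scalings, filters, pseudocounts, joins, call rules and sets of libraries. Results for some genes are not reported here.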

Additional observations from a re-analysis of the deposited data

How the results depend on the processing

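Under each alternative scaling, filter, pseudocount and join, and with each library left out, both counts of calls kept within 1.5 times those reported. Only looser call rules moved them: at an adjusted p below 0.05 alone 4202 genes were higher in neurospheres and 5634 in hippocampi, and at a log2 difference above 0.4 with an unadjusted p below 0.05 the counts were 3264 and 4758. Leaving out one library at a time gave 1297 to 1317 and 2688 to 2756 genes. Deviations of hippocampus and neurosphere libraries from their group means correlated across genes at -0.0498 to 0.0498 over all pairs of numbers. With 2 neurosphere libraries these deviations mirror each other, so the values cannot tell whether same-numbered libraries were prepared together. A fit with the replicate number as a block called 1295 and 2732 genes.

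Of 171 genes named by rule, 141 were called, and 96 of these kept their call in every alternative. By percentile 24 lost it with the sign kept, without rescaling 6 and with the cKO libraries 23. Another 7 of the 171 changed sign with the cKO libraries, with a call in either fit. Their differences became -0.038 for Pdgfra, -1.77 for Mbp, -1.94 for Gja1, -0.30 for Aldoc, -1.49 for Cdkn1c, -1.52 for Slc7a11 and 0.022 for Hprt. Of these, Mbp, Cdkn1c and Slc7a11 had no call with the controls and were called only with the cKO libraries. Joined on name alone, a join added after the data had been seen, Aldoc changed to -5.15. Ier2, which is not among the 171, changed sign too. The immediate early list then had 11 genes higher in neurospheres and 1 in hippocampi. The cause of these changes was not tested. Counts for gene lists moved by over 1.5 times in 15 of 46 cases with the cKO libraries and in 9 by percentile. FPKM gives no read depth, so the counting error of low values, among them those listed at 0, is not known.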

Other observations

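Gene families were picked by symbol after the data had been seen, and their counts are given as a description beside 10.3% of all genes higher in neurospheres and 21.6% higher in hippocampi. Of 16 Sox transcription factors tested, 8 were higher in neurospheres and 5 in hippocampi. Besides Sox2, Sox3, Sox9 and Sox10, the neurosphere side held Sox8 and Sox21, factors of glial and of progenitor cells, with means of 8.65 and 5.13 FPKM in hippocampi and 104 and 44.5 FPKM in neurospheres, Sox6, known from oligodendrocyte precursors, and Sox15. With the cKO libraries Sox10 differed by 0.15. The hippocampal side held Sox11 and Sox12, factors of young neurons, with Sox11 at 93.6, 94.9 and 97.3 FPKM in hippocampi and 20.7 and 21.96 FPKM in neurospheres. It also held Sox7, Sox17 and Sox18, which act in endothelium, of which Sox7 just missed the call with the cKO libraries, at -0.99. Of 39 Hox genes in both tables none was high enough to test.

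Ion channels went mostly with the tissue. Of 23 subunits of voltage-gated sodium and calcium channels tested, 21 were higher in hippocampi, and Cacna1e fell from 23.4 to 0.265 FPKM. Potassium channels were more divided, with 22 of 45 subunits higher in hippocampi and 5 in neurospheres. Kcnb2, a delayed rectifier subunit, fell from 7.28 to 0.00556 FPKM, while Kcnj10 and Kcnj16, which form an inward rectifier of glia, rose from 10.4 and 1.90 to 34.9 and 25.3 FPKM. The difference of Kcnj10 was -0.00043 with the cKO libraries. Of 28 collagens 16 were higher in hippocampi, among them Col4a1 and Col4a2 of vessel basement membranes, with means of 31.4 and 23.7 FPKM in hippocampi and 1.51 and 0.516 FPKM in neurospheres. Of 11 integrins 3 were higher in neurospheres and 2, Itga3 and Itga8, in hippocampi. Itgb8 and Itgav, which pair to activate TGF-beta, and Itgb1 were those of neurospheres, Itgb8 at 7.13, 7.65 and 7.82 FPKM in hippocampi and 63.1 and 56.97 FPKM in neurospheres. Itga8 lost its call with the cKO libraries, at -0.12.

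Tubulins and protocadherins each held genes on both sides. Of 12 tubulins tested 6 were higher in hippocampi, and Tubb6 alone rose in neurospheres, from 5.30 to 35.4 FPKM. Of 19 protocadherins 6 were higher in hippocampi and 4 in neurospheres, with Pcdh8 at means of 40.9 and 1.39 FPKM and Pcdh15 at 4.41 and 30.3 FPKM. Among ADAM and ADAMTS proteases 8 of 27 were higher in hippocampi and 5 in neurospheres, where Adamts1 reached 60.4 FPKM against 6.04 FPKM. Of 23 histone genes of the Hist clusters 8 were higher in neurospheres and 2 in hippocampi. The linker histone gene Hist1h1c was at 5.54, 4.76 and 5.93 FPKM in hippocampi and 132 and 146 FPKM in neurospheres. Most histone mRNAs of S phase lack a poly(A) tail, and libraries were made from poly(A) RNA.

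Families of basic cell functions had few calls. Of 65 cytosolic ribosomal protein genes 2 were higher in neurospheres and 1 in hippocampi. In 60 of the 65 both neurosphere libraries lay above all hippocampi, against 36.9% of all genes tested. The median of this family was 0.53 on the log2 scale against -0.12 for all genes, and 0.78 without rescaling. The 29 proteasome subunits tested differed by -0.29 to 0.47, with a median of 0.02, and the 30 complex I subunits by -0.96 to 0.83, with a median of 0.27.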
